A study of Homo sapiens with 15 samples.

Results

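The effect of glucosamine (GlcN) given together with alloxan was examined in IL-1β-stimulated MH7A cells by setting 3 arrays of cells that received GlcN, alloxan and IL-1β against 3 arrays of cells that received IL-1β alone. These 6 arrays, of 15 in all, were taken by their labels and paired by experiment number, 1 array of each group in each of 3 experiments. MH7A is an established line of human synovial fibroblasts, immortalised with a viral T antigen. In the GlcN and alloxan group, cells were exposed to 5 mM alloxan for 30 min, then to 5 mM GlcN with 2 mM alloxan for 2.5 h, and then, for 13 h, to IL-1β at 15 pg/ml. GlcN cells received 5 mM GlcN from 2.5 h before IL-1β, alloxan cells received the same alloxan schedule without GlcN, IL-1β alone cells received only the 13 h of IL-1β, and the remaining 3 arrays are of resting cells without IL-1β. Every value described here other than in resting cells is therefore from cells exposed to IL-1β, from 1 line, under 1 schedule of each agent and at 1 time. The 3 experiments are described as separate repeats. The p-values therefore rest on how differences between groups vary from repeat to repeat in this line, with 1 spread per gene pooled over all 15 arrays.

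GlcN is an amino sugar that cells phosphorylate and pass into the hexosamine pathway, whose end product, UDP-GlcNAc, is the sugar donor for O-GlcNAc modification. O-GlcNAc transferase (OGT) adds this sugar to serine and threonine residues of nuclear and cytoplasmic proteins, and O-GlcNAcase (OGA) removes it. Alloxan, a uracil analogue, was used here as an OGT inhibitor, and it is also known as a redox-active compound that is toxic to pancreatic beta cells. A comparison with IL-1β alone holds the effects of both agents, so the arrays of each agent alone are set beside it. The arrays measure RNA and not O-GlcNAc or OGT activity.

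All levels are log2 signals from Affymetrix Human Gene 1.0 ST arrays, where a difference of 1 is a doubling, and a level is compared only between arrays for the same gene. Array medians ran between 6.18 and 6.21 in experiment 1, between 7.14 and 7.19 in experiment 2 and between 7.49 and 7.54 in experiment 3, so raw levels differed more between experiments than between treatments and differences were taken within an experiment. Whether groups overlap is described on the levels as deposited, across these experiments. Among 13 markers of synovial fibroblasts, the signal of vimentin lay at the 98.6th percentile of its array (median over the 6 arrays), that of COL1A1 at the 91st, CD55 at the 89.3rd and THY1 at the 80.9th. The signal of PDGFRA lay at the 26.3rd, FAP at the 27.8th and PDPN at the 29.8th, and that of PRG4, the gene of lubricin, at the 14.8th, under the 20th percentile used to leave out dim genes. These ranks place each probe set's signal on its array and do not compare RNA levels between genes. Above the 80th percentile lay 4 of 13 fibroblast, 1 of 8 macrophage (CD68) and 2 of 6 epithelial markers (KRT18, KRT8), so the ranks alone do not identify the cell type. No tested marker of macrophages, T cells or B cells passed the test between GlcN and alloxan and IL-1β alone, while 3 of 6 endothelial, 1 of 6 chondrocyte and 1 of 6 epithelial markers were lower. The 3 endothelial ones, CDH5, VWF and TEK, lay at the 39.6th, 34th and 37.2nd percentile, with small differences of -0.22, -0.19 and -0.18.

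With GlcN and alloxan, 1529 of 16872 genes tested (9.06%) were higher and 1429 (8.47%) were lower than with IL-1β alone (limma with experiment as a block, Benjamini-Hochberg adjusted p under 0.05). Genes of amino acid supply and of the endoplasmic reticulum stood among the upregulated ones. Genes of matrix and lipid synthesis stood among the downregulated ones, with the cytokine genes IL6 and IL24 but not CXCL8 or TNF. Past a 1.5-fold change there were 226 genes higher and 358 lower, and past a 2-fold change 44 higher and 79 lower. The median difference over all genes tested was -0.0029. RMA brings arrays that are processed together to a common distribution, and array medians here were close within each experiment though not across experiments. A shift of all genes therefore cannot be read from the median difference. These calls rest on the pairing by experiment and on a spread estimated over all 15 arrays: with only the 6 arrays compared, limma called 124 genes higher and 152 lower, and without the experiment block 0 higher and 1 lower, CD180, with 27 and 45 at an unadjusted p under 0.05. Without the IL-1β alone array of experiment 2, 966 genes were higher.

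**Figure D1:**
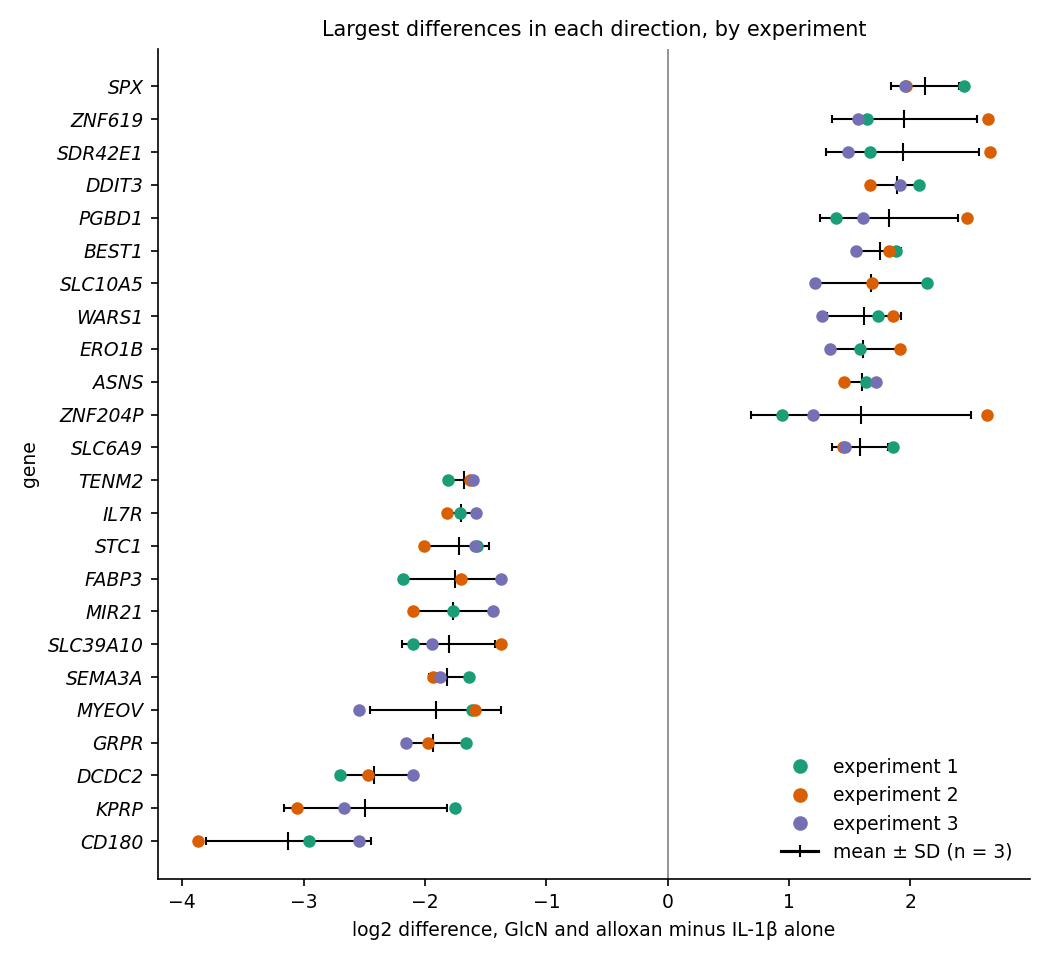
Difference between GlcN and alloxan and IL-1β alone for the 12 genes with the largest change in each direction among those past the threshold and changed the same way in 3 of 3 experiments. Points are the 3 within-experiment log2 differences (horizontal axis) and the black bars are their mean ± SD. SPX leads the higher genes at 2.12 and CD180 the lower ones at -3.13.

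SPX, which encodes the peptide hormone spexin, was the most upregulated gene. Its level was 7.83, 8.29 and 8.59 with GlcN and alloxan in experiments 1 to 3, against 5.39, 6.32 and 6.63 with IL-1β alone. All 3 GlcN and alloxan arrays lay above all 3 IL-1β alone arrays, with a mean difference of 2.12 ± 0.28 (SD over 3 experiments), a 4.35-fold change (limma adjusted p = 3.48e-05). The difference was 3.08 with GlcN and 0.10 with alloxan, each against the same IL-1β alone arrays. BEST1, a calcium-activated chloride channel, had 7.20, 8.72 and 8.78 with GlcN and alloxan, against 5.32, 6.90 and 7.23 with IL-1β alone. The groups overlapped, as experiment 1 ran low on every array, but each experiment showed a rise, on average 1.75 ± 0.17 or 3.37-fold (limma adjusted p = 5.67e-06).

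DDIT3, which encodes the stress transcription factor CHOP, had 9.69, 10.70 and 10.76 with GlcN and alloxan, against 7.62, 9.03 and 8.84 with IL-1β alone. Every GlcN and alloxan array was above every IL-1β alone array, and the mean difference was 1.89 ± 0.20, or 3.7-fold (limma adjusted p = 7.94e-06). Others of the 12 act in amino acid use and protein folding. They were WARS1, the tryptophanyl-tRNA synthetase (3.07-fold), ERO1B, an oxidase that drives disulfide formation (3.06-fold), ASNS, asparagine synthetase (3.03-fold), and SLC6A9, a glycine transporter (3-fold). ZNF619, PGBD1, SDR42E1 and SLC10A5 had mean log2 differences of 1.95 ± 0.60, 1.82 ± 0.57, 1.94 ± 0.63 and 1.68 ± 0.46. ZNF204P completed the 12 at 1.59 ± 0.91 (limma adjusted p = 0.0127), with 1 of 3 IL-1β alone arrays at or below its 20th percentile, but missed the threshold without the experiment 2 array of either group, at 0.0678 without that of GlcN and alloxan and 0.0603 without that of IL-1β alone.

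CD180, a Toll-like receptor homologue that modulates endotoxin responses in B cells and macrophages, was the most downregulated gene. Its level was 4.42, 5.10 and 5.49 with GlcN and alloxan, against 7.37, 8.98 and 8.04 with IL-1β alone. No GlcN and alloxan array reached any IL-1β alone array, and the mean difference was -3.13 ± 0.68 (limma adjusted p = 8.88e-06). On 2 of the 3 GlcN and alloxan arrays the signal was at or below the array's 20th percentile, so the fall is better read as a bound. With such values set to that percentile, CD180 was at least 8.56-fold lower. It was also lower with GlcN (-2.91) and with alloxan (-2.25). IL7R, the receptor chain for interleukin-7, had 8.63, 9.22 and 9.66 with GlcN and alloxan, against 10.34, 11.04 and 11.24 with IL-1β alone. The 3 differences were close to each other, -1.71, -1.82 and -1.58, and averaged -1.70 ± 0.12 (limma adjusted p = 8.65e-07).

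TENM2, a teneurin of cell contacts, had 7.12, 8.32 and 8.80 with GlcN and alloxan, against 8.93, 9.96 and 10.40 with IL-1β alone. Each experiment showed a fall of similar size, with a mean of -1.68 ± 0.11 (limma adjusted p = 4.28e-07). The difference was -1.66 with alloxan and -0.46 with GlcN. Of the other genes among the 12 most downregulated, SEMA3A, a secreted guidance cue, had a mean difference of -1.82 ± 0.15, SLC39A10, a zinc importer, -1.80 ± 0.38, and STC1, the secreted glycoprotein stanniocalcin, -1.72 ± 0.25. GRPR, the receptor of gastrin-releasing peptide, had -1.93 ± 0.25, FABP3, a fatty acid binding protein, -1.75 ± 0.40, and DCDC2, a microtubule-binding protein, -2.42 ± 0.30. KPRP, a keratinocyte gene, had -2.49 ± 0.67 and MYEOV -1.91 ± 0.54. With only the 6 arrays compared, 11 of these 24 genes passed the threshold, and CD180 was among the 13 that did not.

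**Figure D2:**
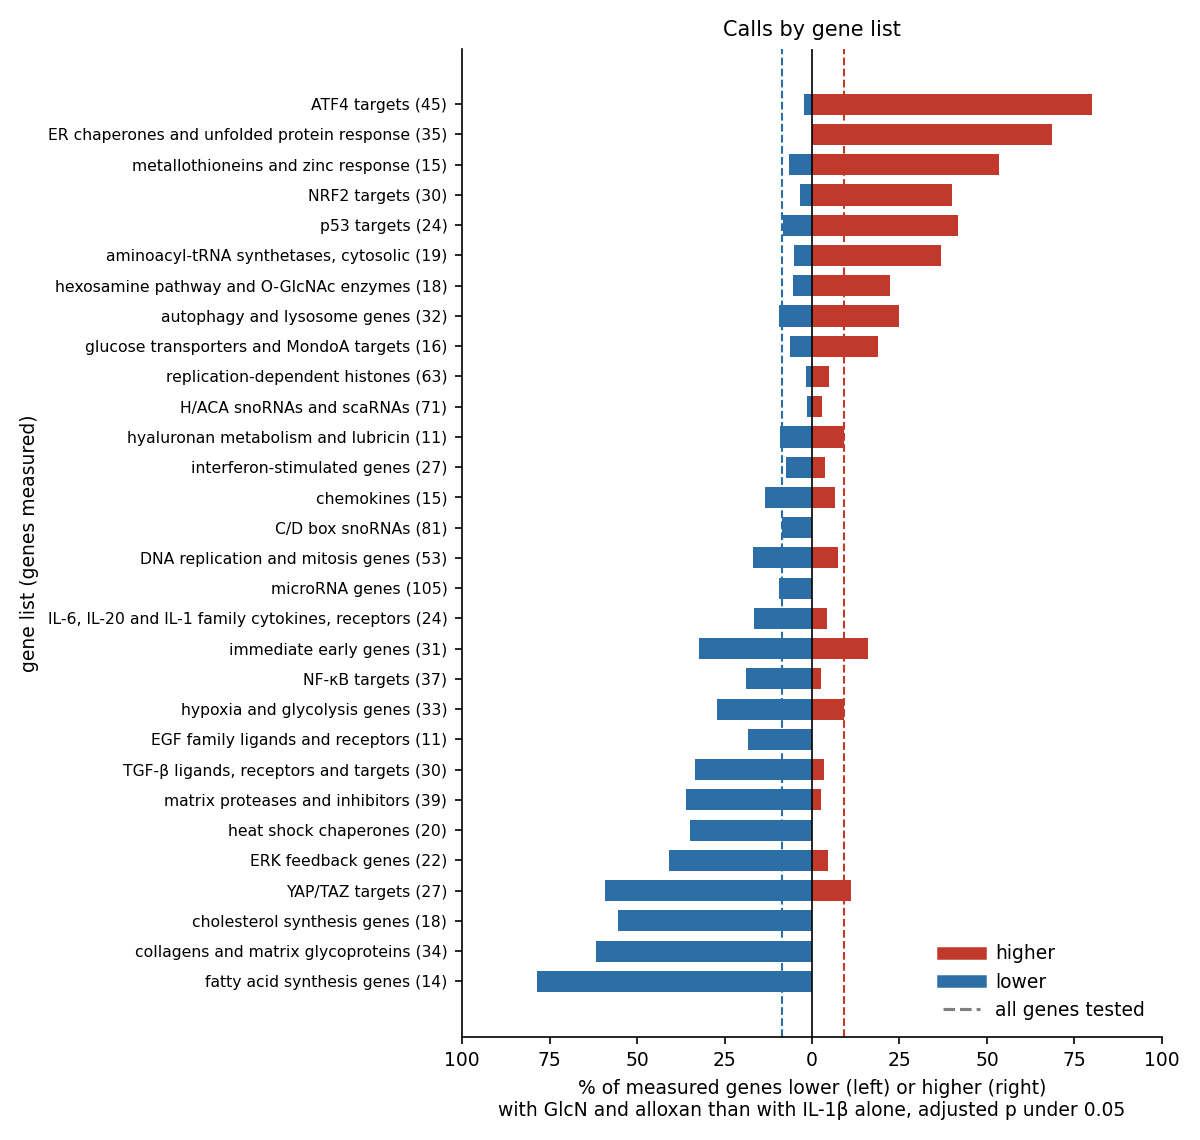
Percent of the measured genes of each list that were higher (right) or lower (left) with GlcN and alloxan than with IL-1β alone, at an adjusted p under 0.05, with the number measured beside the list name and dashed lines for all genes tested. ATF4 targets (36 of 45 higher) and endoplasmic reticulum chaperones (24 of 35 higher) lie far to the right, and collagens and matrix glycoproteins (21 of 34 lower) and YAP/TAZ targets (16 of 27 lower) to the left.

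These counts shrank with only the 6 arrays compared: beyond the ATF4, endoplasmic reticulum and YAP/TAZ lists, no list then had more than 2 genes called in either direction. Each list count against IL-1β alone is to be read beside the 9.06% higher and 8.47% lower of all genes tested.

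Targets of ATF4, the transcription factor that is translated when eIF2α is phosphorylated under amino acid shortage or other stress, were mostly upregulated. Of 45 measured, 36 were higher and 1 was lower, with a median difference of 0.77 against -0.0029 over all genes tested. The one lower gene was STC2 (-0.55 ± 0.28, limma adjusted p = 0.0141), a secreted glycoprotein, which was not called without the experiment 2 array of either group. With only the 6 arrays compared 13 were higher, and between 32 and 36 were higher when any 1 array of the comparison was left out. Given alone, GlcN had 37 of the 45 higher and alloxan 11, with medians of 0.98 and 0.034 (5.29% and 6.13% of all genes tested were higher in those comparisons, which share the IL-1β alone arrays).

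ASNS, which makes asparagine from aspartate and glutamine, had 9.42, 10.21 and 10.25 with GlcN and alloxan, against 7.79, 8.75 and 8.54 with IL-1β alone. All GlcN and alloxan arrays were above all IL-1β alone arrays (mean difference 1.60 ± 0.13, limma adjusted p = 4.01e-05). Enzymes of serine and one-carbon metabolism were higher, PHGDH by 1.18 ± 0.16, PSAT1 by 1.02 ± 0.20, MTHFD2 by 0.99 ± 0.12 and ALDH1L2 by 1.18 ± 0.21. So were amino acid transporters, SLC7A11 by 1.28 ± 0.62, which exchanges glutamate for cystine, SLC3A2, its heavy chain partner, by 1.17 ± 0.39, and SLC1A4, a neutral amino acid carrier, by 0.70 ± 0.13. Regulators in the list were higher too: SESN2, a brake on mTORC1, by 1.24 ± 0.14, TRIB3, a pseudokinase, by 1.02 ± 0.11, and CHAC1, which cleaves glutathione, by 1.20 ± 0.37. KLHL24, a ubiquitin ligase adaptor with one of the smallest p-values of the list, rose by 0.77 ± 0.083 (limma adjusted p = 4.24e-06).

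**Figure D3:**
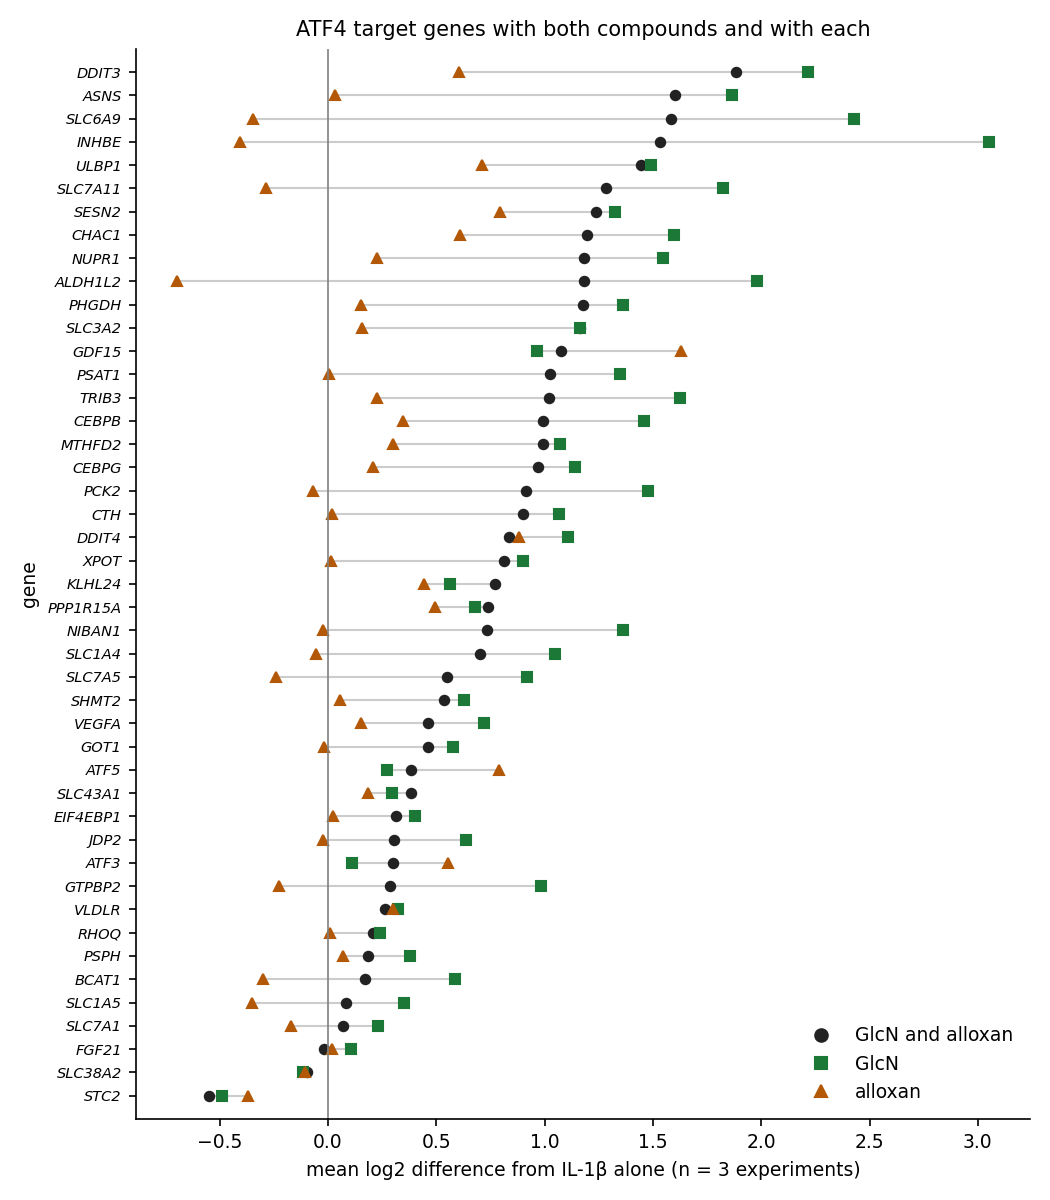
Mean log2 difference from IL-1β alone for each measured ATF4 target, with GlcN and alloxan, with GlcN and with alloxan, all against the same 3 IL-1β alone arrays. With GlcN and alloxan most targets lie above 0 (36 of 45 passed as higher), as with GlcN (37), while with alloxan 11 passed.

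The promoters of these genes were searched for the composite site that C/EBP and ATF4 factors bind, written TGATGNAAN, on both strands. Of 36 list members with a promoter sequence from RefSeq (build GRCh38.p14, 250 bases before to 50 after the start), 12 (33.3%) held the letters, against 3.61% of 35116 such windows and 3.18% of 13149 genes tested. Of the 12, 8 were higher and 4 (BCAT1, FGF21, SLC1A5 and SLC7A1) did not pass the test. The sites of the 5 higher genes with the largest differences are printed 5′ to 3′ along the gene's strand, with the matched letters in capitals, since these were the strongest risers that held the letters.
ASNS, chr7:97872448-97872496, minus strand: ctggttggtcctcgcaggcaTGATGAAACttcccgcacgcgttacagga
CHAC1, chr15:40953241-40953289, plus strand: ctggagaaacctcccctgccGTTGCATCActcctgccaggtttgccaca
SLC3A2, chr11:62881715-62881748, plus strand: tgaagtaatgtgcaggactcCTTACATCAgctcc
CEBPG, chr19:33374051-33374099, plus strand: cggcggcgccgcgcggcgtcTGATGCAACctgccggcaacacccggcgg
SLC1A4, chr2:64989371-64989419, plus strand: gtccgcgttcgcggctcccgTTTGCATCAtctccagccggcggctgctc
The match is on the gene's own strand in ASNS and CEBPG and on the other strand in CHAC1, SLC3A2 and SLC1A4. CEBPG, a partner of ATF4 in such dimers, itself rose by 0.97 ± 0.24. A match of letters is a description of the window and no measurement of binding. The share of members with a match follows from which genes were listed as targets and not from the arrays, so it is no result of this comparison.

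Cytosolic aminoacyl-tRNA synthetases, which load amino acids onto tRNAs, split by member. Of 19 measured, 7 were higher (WARS1, AARS1, SARS1, GARS1, MARS1, CARS1 and YARS1), and RARS1 was lower at -0.25 ± 0.10. AARS1 had 11.30, 12.18 and 12.36 with GlcN and alloxan, against 10.22, 11.12 and 11.46 with IL-1β alone, a difference of 1.01 ± 0.10 (limma adjusted p = 1.63e-05). The 2 groups overlapped across experiments while each experiment showed a rise near 1. The median over the 19 was 0.056, and the 11 that did not pass ran between -0.14 and 0.19. RARS1 was called only with all arrays or without the experiment 3 array of IL-1β alone, and 1 of the 7 higher genes was called with the 6 arrays alone.

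Chaperones of the endoplasmic reticulum and genes of the unfolded protein response were upregulated as well. Of 35 measured, 24 were higher and 11 did not pass, with a median of 0.39, and 9 were higher with only the 6 arrays compared. HSPA5, the main Hsp70 of the endoplasmic reticulum, had 13.06, 13.67 and 13.75 with GlcN and alloxan, against 12.05, 12.92 and 13.09 with IL-1β alone, a difference of 0.81 ± 0.18 (limma adjusted p = 0.000103). Its differences were 0.88 with GlcN and -0.40 with alloxan. HERPUD1, which serves degradation of misfolded proteins, rose by 1.28 ± 0.18, the co-chaperone DNAJC3 by 1.09 ± 0.049, HYOU1, another endoplasmic reticulum chaperone, by 0.83 ± 0.092 and the disulfide isomerase PDIA4 by 0.69 ± 0.11. Among the sensors and regulators, ERN1, the IRE1 kinase that splices XBP1 mRNA, rose by 0.35 ± 0.053 and XBP1 by 0.53 ± 0.15. In the alloxan group 2 of the 35 were higher and 10 lower than with IL-1β alone (median -0.13), and in the GlcN group 27 were higher and 1 lower (median 0.46). Of all genes tested, 6.13% were higher and 7.21% lower with alloxan, and 5.29% and 6.62% with GlcN.

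The element bound by ATF6 with NF-Y, CCAAT and CCACG with 9 bases between them, was searched in the same windows on both strands. It was found in 8 of 31 list members with a promoter sequence (25.8%), against 0.0769% of all windows and 0.137% of genes tested. This share, too, follows from the genes listed and not from the arrays, and binding was not measured. All but CANX (0.14 ± 0.064, limma adjusted p = 0.0618) of the 8 were higher. The 4 higher genes with the largest differences are shown, 5′ to 3′ along the gene's strand, with the element and its spacer in capitals.
ERO1B, chr1:236282163-236282208, minus strand: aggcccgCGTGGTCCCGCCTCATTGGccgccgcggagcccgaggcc
HSPA5, chr9:125241371-125241429, minus strand: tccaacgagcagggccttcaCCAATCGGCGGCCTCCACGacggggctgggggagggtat
XBP1, chr22:28800583-28800641, minus strand: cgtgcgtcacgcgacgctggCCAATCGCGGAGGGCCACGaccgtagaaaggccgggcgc
CRELD2, chr22:49918534-49918592, plus strand: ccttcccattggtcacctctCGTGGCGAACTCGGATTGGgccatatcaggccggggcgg
In HSPA5 and XBP1 the element reads along the gene, and in ERO1B and CRELD2 it lies on the other strand.

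Among NF-κB targets, which IL-1β induces through its receptor, 7 of 37 measured were lower, 1 was higher (REL, 0.33 ± 0.12) and the median was -0.10. The 7 were C3, IL6, IER3, TNFAIP3, BCL3, CXCL1 and NFKBIZ, but the count was 4, and REL was not called, without the experiment 1 or experiment 2 array of either group, and none of the list was called with only the 6 arrays compared. IL6, the pleiotropic inflammatory cytokine, had 6.37, 7.51 and 8.03 with GlcN and alloxan, against 8.03, 8.63 and 8.59 with IL-1β alone. The highest GlcN and alloxan value and the lowest IL-1β alone value were equal as printed, and the within-experiment differences were -1.67, -1.12 and -0.56, a mean of -1.12 ± 0.55 (limma adjusted p = 0.00254). The same gene had -1.07 with GlcN and -0.21 with alloxan. C3, a complement component, fell to 0.448 of the IL-1β alone level (-1.16 ± 0.50, limma adjusted p = 0.0049), and IER3, an early stress response gene, to 0.462 (-1.11 ± 0.40).

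CXCL8, the neutrophil chemokine also called IL-8, had 6.70, 7.26 and 7.43 with GlcN and alloxan, against 6.85, 7.27 and 7.43 with IL-1β alone. The values of the 2 groups lay on top of each other, with a mean difference of -0.054 ± 0.089 that did not pass the test (limma adjusted p = 0.936). CXCL8 was higher with alloxan than in either of these groups in each experiment (levels given below). The near-equal values therefore describe the combination only and not each compound. TNF, an inflammatory cytokine, had 5.77, 6.53 and 7.09 with GlcN and alloxan and 5.65, 6.73 and 7.10 with IL-1β alone, likewise overlapping (-0.030 ± 0.16, limma adjusted p = 0.913). Each of these small differences changed sign when 1 array was left out, CXCL8 to 0.033 without IL-1β alone of experiment 1 and TNF to 0.064 without GlcN and alloxan of experiment 2. IL24, a cytokine of the IL-20 family, had 6.34, 7.63 and 8.13 with GlcN and alloxan, against 6.57, 8.56 and 8.74 with IL-1β alone, lower in 3 of 3 experiments (-0.59 ± 0.35, limma adjusted p = 0.00633). TGFB1, an immunosuppressive growth factor, had a mean difference of -0.24 ± 0.16 and sat at the threshold without passing it (limma adjusted p = 0.0501).

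**Figure D4:**
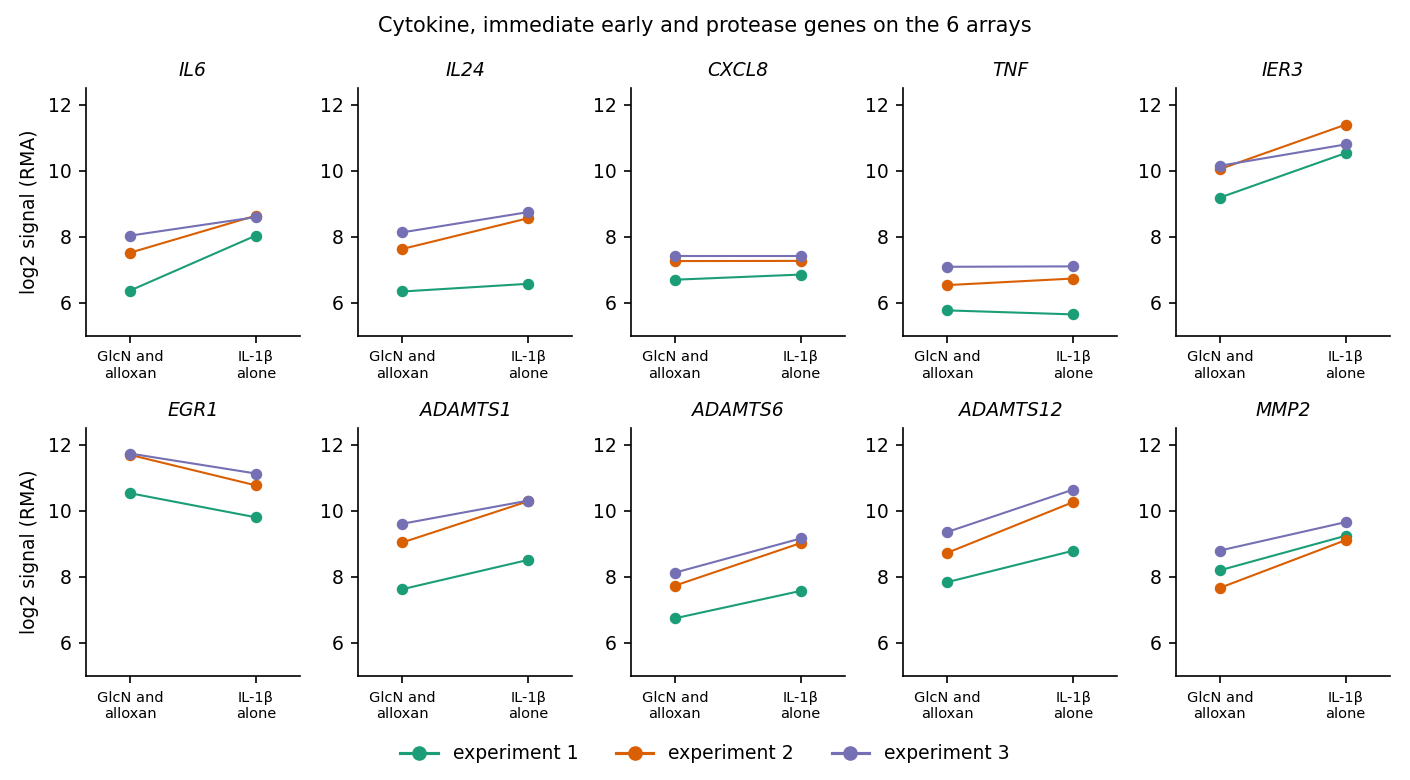
Log2 levels of cytokine, immediate early and protease genes on the 3 GlcN and alloxan arrays (left) and the 3 IL-1β alone arrays (right), with lines joining arrays of the same experiment. IL6, IL24, IER3, ADAMTS1, ADAMTS6, ADAMTS12 and MMP2 lie lower with GlcN and alloxan in each experiment, EGR1 lies higher, and CXCL8 and TNF are nearly level.

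Of 24 cytokines and receptors of the IL-6, IL-20 and IL-1 families and of related receptors, 4 were lower, IL7R, IL6, OSMR and IL24, and 1 was higher, IL20RB. OSMR, the receptor chain for oncostatin M, had -0.78 ± 0.22. IL20RB, a receptor chain for interleukins 20 and 24, was higher by 0.81 ± 0.046 (limma adjusted p = 0.00133). Of 15 chemokines, CXCL16 was higher (0.34 ± 0.29) and CXCL1 (-0.45 ± 0.40, limma adjusted p = 0.0499) and CCL5 (-0.36 ± 0.14, limma adjusted p = 0.00108) were lower, CXCL16 (limma adjusted p = 0.0373) and CXCL1 close to the threshold. Chemokine shares were 6.67% higher, below the 9.06% of all genes tested, and 13.3% lower, against 8.47%. CXCL16 was not called without the experiment 2 array of either group or the experiment 3 array of GlcN and alloxan, and 1 lower chemokine was called without any 1 array other than the experiment 3 array of IL-1β alone. Of 27 interferon-stimulated genes, IRF9 was higher (0.23 ± 0.068) and IFI35 (-0.49 ± 0.41) and RIGI (-0.38 ± 0.26) were lower. These shares, 3.7% and 7.41%, are below the 9.06% and 8.47% of all genes tested, and IRF9 was called only with all arrays and the lower count was 0 without the experiment 1 array of either group.

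Immediate early genes, which respond within minutes to growth factors and stress, moved both ways. Of 31 measured, 5 were higher (EGR1, NR4A3, NR4A2, FOSB and ATF3) and 10 lower, led by IER3, CCN1, BHLHE40 and KLF10. EGR1, a zinc finger transcription factor, had 10.53, 11.70 and 11.73 with GlcN and alloxan, against 9.80, 10.77 and 11.13 with IL-1β alone. It was higher in each experiment, by 0.75 ± 0.16 on average (limma adjusted p = 0.000466), while its difference was -0.62 with GlcN and 1.36 with alloxan. KLF10, a TGF-β-induced repressor, had -0.75 ± 0.086 (limma adjusted p = 8.88e-06), and CCN1, a matricellular protein, -0.87 ± 0.25. Without the IL-1β alone array of experiment 2, 3 immediate early genes were higher, and with only the 6 arrays 1 was higher and 1 lower.

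Of 22 genes listed as ERK feedback genes, 9 were lower, with a median of -0.13. The list also holds genes that do not themselves damp ERK signalling, and IER3 counts here as well as among NF-κB targets and immediate early genes. The 9 included DUSP5, a nuclear ERK phosphatase (-0.60 ± 0.091), PHLDA1 (-0.74 ± 0.21) and EPHA4, an ephrin receptor (-0.80 ± 0.14, limma adjusted p = 1.88e-05). Cyclin D1 (CCND1), a growth factor target of the same list, had -0.68 ± 0.38. DUSP8 was the one higher gene (0.20 ± 0.032), but not without the experiment 3 array of either group, the experiment 1 array of GlcN and alloxan or the experiment 2 array of IL-1β alone. Of 11 EGF family ligands and receptors, NRG1 (-0.82 ± 0.25) and HBEGF (-0.50 ± 0.23), both ligands, were lower, and no receptor passed. The count of 2 was 4 without the experiment 1 array of GlcN and alloxan and 1 without its experiment 2 array.

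Matrix genes were mostly downregulated. Of 34 collagens and matrix glycoproteins, 21 were lower and 13 did not pass, with a median of -0.38, and between 18 and 21 were lower without any 1 array of the comparison. None passed with only the 6 arrays compared. The fibrillar collagens COL3A1 (-1.05 ± 0.33), COL1A2 (-0.99 ± 0.28) and COL1A1 (-0.90 ± 0.20), periostin (POSTN, -1.40 ± 0.41) and the network collagen COL8A1 (-1.19 ± 0.26) led the list. FBN2, a microfibril protein, had -0.84 ± 0.19 (limma adjusted p = 1.17e-05) and COL12A1, a fibril-associated collagen, -0.57 ± 0.14. Of 12 tested markers of synovial fibroblasts, 6 were lower, COL1A1, COL1A2, COL3A1, FAP, PDGFRB and THY1, and CD55 was higher. The markers VIM, PDPN, PDGFRA, CDH11 and S100A4 did not pass. The mean log2 level over the 13 markers was 7.06, 7.90 and 8.49 with GlcN and alloxan, against 7.45, 8.29 and 8.73 with IL-1β alone, lower in each experiment, and its part in the matrix counts was not tested. COL1A1, COL1A2 and COL3A1 count among both the markers and the matrix genes, so this mean is not a separate reading of fibroblast content. In RNA of whole cultures, fewer cells that express a gene and less of its RNA per cell cannot be told apart.

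Proteases that cut matrix, and their inhibitors, were lower in 14 of 39 measured and higher in 1, ADAM17 (0.18 ± 0.022), with a median of -0.11. ADAM17 was not called without the experiment 1 array of either group, the experiment 3 array of GlcN and alloxan or the experiment 2 array of IL-1β alone. ADAMTS12, a metalloprotease of cartilage matrix proteins, had 7.84, 8.73 and 9.36 with GlcN and alloxan, against 8.79, 10.27 and 10.64 with IL-1β alone. It was lower in each experiment, with a mean difference of -1.26 ± 0.29 (limma adjusted p = 1.69e-05). ADAMTS1, an aggrecan and versican protease, had 7.63, 9.04 and 9.61 with GlcN and alloxan, against 8.52, 10.29 and 10.31 with IL-1β alone (-0.94 ± 0.28, limma adjusted p = 0.000109), and ADAMTS6 had -1.05 ± 0.23. The falls of these 3 genes had the same sign in 3 of 3 experiments, and the groups overlapped only across experiments. MMP2, a gelatinase, had 8.20, 7.67 and 8.80 with GlcN and alloxan, against 9.25, 9.11 and 9.66 with IL-1β alone (-1.12 ± 0.30), and PLAT, the tissue plasminogen activator, had -1.09 ± 0.13.

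The interstitial collagenase MMP1 and stromelysin MMP3 did not pass the test, at -0.53 ± 0.47 and -0.30 ± 0.17, nor did the inhibitors TIMP1 (-0.051 ± 0.17) and TIMP3 (-0.082 ± 0.13). Of 11 genes of hyaluronan metabolism and lubricin, 1 passed in each direction (9.09%, near the share of all genes). UGDH, which makes the precursor UDP-glucuronate, was higher (0.60 ± 0.15, limma adjusted p = 0.000734) and the hyaluronidase HYAL2 lower (-0.31 ± 0.27), though HYAL2 was not called without the experiment 2 array of either group or the experiment 1 array of IL-1β alone.

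Targets of YAP and TAZ, cofactors that read cell shape and Hippo signalling, were lower in 16 of 27 and higher in 3 (AMOTL1, LATS2 and AJUBA), with a median of -0.39. F3, the tissue factor that starts clotting, had the smallest spread of the 16 lower genes, -1.57 ± 0.041 over the 3 experiments (limma adjusted p = 3.57e-06). EDN1, the vasoconstrictor endothelin-1, had -1.44 ± 0.18 and ANKRD1, a muscle ankyrin repeat protein and a widely used YAP readout, -1.44 ± 0.29. CCN2, a classic YAP target, did not pass (-0.15 ± 0.18). Of the 3 higher genes, 1 was called without the experiment 2 array of either group or the IL-1β alone array of experiment 1. With only the 6 arrays compared, 5 of the 16 lower genes were called.

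Of 30 TGF-β superfamily ligands, receptors and targets, 10 were lower and ID2, an inhibitor of differentiation factors, was higher (0.63 ± 0.039). The ligand TGFB2 had -1.66 ± 0.36 (limma adjusted p = 1.4e-05), the coreceptor endoglin (ENG) -0.78 ± 0.12, and the BMP modulators BMPER and GREM1 -1.13 ± 0.10 and -0.98 ± 0.31. Among the single treatments TGFB2 had -0.79 with GlcN and -1.47 with alloxan.

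Lipid synthesis genes were lower where they passed. Of 18 cholesterol synthesis genes, 10 were lower and 8 did not pass (median -0.28), but 5 were lower without the GlcN and alloxan array of experiment 2 and none with only the 6 arrays. FDPS, the farnesyl diphosphate synthase, had -0.88 ± 0.65, LSS, which cyclises squalene epoxide, -0.72 ± 0.19 (limma adjusted p = 4.06e-05), and INSIG1, the sterol-sensitive brake on SREBP, -0.48 ± 0.32. Of 14 fatty acid synthesis genes, 11 were lower (median -0.39), 9 to 11 without any 1 array but 2 with only the 6 arrays. They ran along the pathway: ACLY, which supplies acetyl-CoA, had -0.49 ± 0.10, the carboxylase ACACA -0.60 ± 0.11, fatty acid synthase (FASN) -0.61 ± 0.18 and the elongase ELOVL6 -0.81 ± 0.084, beside SREBF1, their transcription factor, at -0.44 ± 0.31. The sterol element TCACNCCAC was found, on either strand, in the promoter window of 1 of 17 cholesterol genes and 0 of 13 fatty acid genes. Of all windows 1.13% held it, and of genes tested 1.5%. The gene with the match, SREBF2, did not pass the test (-0.075). These shares, too, follow from the genes listed and not from the arrays.

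Of 18 genes of the hexosamine pathway and O-GlcNAc cycle, OGA (0.38 ± 0.10, limma adjusted p = 0.00999), GFPT1 (0.28 ± 0.20, limma adjusted p = 0.0265), NANS (0.31 ± 0.16) and GNE (0.29 ± 0.052) were higher and AMDHD2, which deacetylates GlcNAc phosphate, was lower (-0.18 ± 0.070). OGT itself had 8.94, 10.12 and 10.27 with GlcN and alloxan and 9.01, 10.05 and 10.43 with IL-1β alone, overlapping values with a difference of -0.050 ± 0.12 (limma adjusted p = 0.784). Of the 4 higher genes, 1 was called without the GlcN and alloxan array of experiment 2 and 2 without the IL-1β alone array of experiment 1 or 2, and AMDHD2 was not called without the experiment 1 or 2 array of either group. GFPT2, the other form of the rate-limiting enzyme, was not among the genes tested.

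Of 16 glucose transporters and MondoA targets, TXNIP, a glucose-sensing inhibitor of thioredoxin, was higher at 0.73 ± 0.15 (limma adjusted p = 6.26e-05), as were SLC2A8 and PFKFB3, and the main glucose transporter SLC2A1 was lower at -0.36 ± 0.24, though not without the experiment 2 array of either group or the experiment 1 array of IL-1β alone. TXNIP had 0.76 with alloxan and 0.014 with GlcN. Of 33 hypoxia and glycolysis genes, VEGFA (0.46 ± 0.057), PFKFB3 and KDM3A were higher and 9 lower, among them the glycolytic enzymes PFKP (-0.42 ± 0.10), LDHA (-0.27 ± 0.18) and PKM (-0.23 ± 0.17). The share higher, 9.09%, was near the 9.06% of all genes tested, and the share lower was 27.3%, against 8.47%. Between 4 and 10 were lower when 1 array was left out, with 4 without the IL-1β alone array of experiment 1 or the GlcN and alloxan array of experiment 2, and 5 without the GlcN and alloxan array of experiment 1 or the IL-1β alone array of experiment 2.

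Antioxidant genes driven by NRF2 were higher in 12 of 30 measured and lower in 1, ABCC1, an exporter of glutathione conjugates (-0.66 ± 0.048). NQO1, the quinone reductase often used as a readout of NRF2, had 10.36, 10.96 and 11.37 with GlcN and alloxan, against 9.31, 9.84 and 10.67 with IL-1β alone. It was higher in 3 of 3 experiments (0.95 ± 0.23, limma adjusted p = 1.57e-05), with 0.59 for GlcN and 0.92 for alloxan. EPHX1, an epoxide hydrolase, rose by 0.71 ± 0.11, and the subunits of glutamate cysteine ligase, GCLM and GCLC, which start glutathione synthesis, by 0.48 ± 0.13 and 0.45 ± 0.11. HMOX1 (-0.23 ± 0.33) and TXNRD1 (0.059 ± 0.063) did not pass, and 8 of the list were higher at the lowest when 1 array was left out and 1 with only the 6 arrays compared.

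Of 15 genes of metallothioneins and zinc transport, 8 were higher, among them the zinc exporters SLC30A1 (1.06 ± 0.59, limma adjusted p = 0.00379) and SLC30A4 (0.80 ± 0.23) and the metallothionein MT1E (0.59 ± 0.31). The importer SLC39A10 was the one lower, among the 12 largest falls of all genes. Metallothionein genes are near-identical copies, so their probes may share signal. Of 24 p53 targets, 10 were higher, including the death receptor TNFRSF10B (0.60 ± 0.10), MDM2 (0.23 ± 0.089) and CDKN1A (0.22 ± 0.023), and PLK2 (-0.56 ± 0.12) and GADD45B (-0.31 ± 0.12) were lower. With only the 6 arrays compared, 1 was higher. With alloxan 13 of the 24 were higher and 0 lower (6.13% and 7.21% of all genes tested). With GlcN 3 were higher and 4 lower (5.29% and 6.62% of all genes tested). The share of p53 targets lower, 8.33%, was near the 8.47% of all genes tested. Of 20 cytosolic heat shock chaperones, 7 were lower, led by HSPH1 (-0.39 ± 0.13) and HSPA4L (-0.39 ± 0.10), but 3 without the experiment 1 or 2 array of GlcN and alloxan or the experiment 2 array of IL-1β alone, and 4 without its experiment 1 array. Of 32 autophagy and lysosome genes, 8 were higher, led by WIPI1 (0.73 ± 0.15), a phagophore protein, and ULK2 (0.56 ± 0.41), an initiating kinase, and ATG7, MITF and CTSA were lower (-0.26 ± 0.13, -0.21 ± 0.086 and -0.16 ± 0.094). The share of this list lower, 9.38%, was also near the 8.47% of all genes tested. The counts were 5 and 0 without the experiment 1 array of either group, and the lower count was 0 without the experiment 2 array of IL-1β alone and 1 without that of GlcN and alloxan.

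Of 53 genes of DNA replication and mitosis, 4 were higher, led by the origin licensing factor CDT1 (0.69 ± 0.21, limma adjusted p = 8.68e-05), and 9 were lower, led by MCM6 (-0.43 ± 0.15), a subunit of the replicative helicase. The share higher, 7.55%, was below the 9.06% of all genes tested, and the share lower was 17%, against 8.47%. The lower count was 3 without the experiment 1 array of either group, 4 without the experiment 3 array of IL-1β alone and 5 without that of GlcN and alloxan. Of 63 replication-dependent histone genes, 3 were higher, among them H2AC21 (0.91 ± 0.083), and 1 was lower, H1-1 (-0.93 ± 0.36), shares of 4.76% and 1.59% that are below those of all genes. There were 5 higher without the experiment 1 array of IL-1β alone and 5 lower without its experiment 3 array. These histone genes too are near-identical copies.

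Of 81 C/D box snoRNA genes, 7 were lower with GlcN and alloxan (8.64%, near the 8.47% of all genes tested), against 31 of the same 81 with GlcN, where 6.62% of all genes were lower. None was called lower without the GlcN and alloxan array of experiment 1 or the IL-1β alone array of experiment 2, and 1 without the GlcN and alloxan array of experiment 3 or with only the 6 arrays compared. Of 71 H/ACA snoRNA and scaRNA genes, SNORA3B (0.77 ± 0.25) and SNORA14B (0.57 ± 0.34) were higher and SNORA74A (-0.35 ± 0.24) was lower, shares of 2.82% and 1.41% that are below those of all genes. The higher count was 1 without the experiment 2 or 3 array of GlcN and alloxan or the experiment 3 array of IL-1β alone, and the lower count was 0 without the experiment 1 or 2 array of IL-1β alone and 2 without its experiment 3 array.

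Of 105 microRNA genes and hosts measured, 10 were lower with GlcN and alloxan (9.52%, near the 8.47% of all genes tested) and 95 did not pass, with a median of -0.056. The 10 were MIR21, MIR221, MIR24-2, MIR29A, MIR503, MIRLET7A2 and MIRLET7I and the host genes MIR31HG, MIR503HG and MIRLET7BHG. A cluster on this array does not tell the primary transcript or hairpin from the mature miRNA. The mature sequences of the 7 lower miRNA genes (main arm, from RefSeq, GRCh38.p14), which set which mRNAs they can bind, are given with the seed, bases 2 to 8, in capitals.
hsa-miR-21-5p: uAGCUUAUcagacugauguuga
hsa-miR-221-3p: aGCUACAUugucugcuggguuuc
hsa-miR-24-3p: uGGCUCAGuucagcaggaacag
hsa-miR-29a-3p: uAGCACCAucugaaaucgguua
hsa-miR-503-5p: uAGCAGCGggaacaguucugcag
hsa-let-7a-5p: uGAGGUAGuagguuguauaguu
hsa-let-7i-5p: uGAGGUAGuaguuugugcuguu
Only let-7a and let-7i share a seed. MIR21 had 6.82, 7.18 and 7.47 with GlcN and alloxan, against 8.58, 9.28 and 8.91 with IL-1β alone, without overlap (-1.77 ± 0.33, limma adjusted p = 1.44e-05). Its gene lies in the transcription unit of VMP1, a membrane protein of autophagy, which had -0.30 ± 0.072 (limma adjusted p = 0.00677). MIR221, a miRNA of proliferating cells, had 5.21, 6.24 and 6.33 with GlcN and alloxan, against 5.84, 7.61 and 7.63 with IL-1β alone (-1.10 ± 0.40, limma adjusted p = 0.00132). MIRLET7A2 had 4.04, 5.69 and 5.27 with GlcN and alloxan, against 5.36, 7.14 and 6.30 with IL-1β alone. On 2 of the 3 GlcN and alloxan arrays it was at or below the 20th percentile, and by the bound used for CD180 it was at least 2.17-fold lower (limma adjusted p = 0.000184). MIR29A, whose mature form targets collagen mRNAs, had 3.53, 4.40 and 4.13 with GlcN and alloxan, all at or below the 20th percentile of their arrays, against 4.35, 5.21 and 5.87 with IL-1β alone, so the bound is at least 1.14-fold lower (limma adjusted p = 0.00121). MIR21, MIR221 and MIRLET7A2 were lower in each experiment. MIR503 had -0.59 ± 0.26, MIR24-2 -0.39 ± 0.36 (limma adjusted p = 0.0483) and MIRLET7I -0.24 ± 0.10 (limma adjusted p = 0.048), both of these close to the threshold, and no miRNA gene passed with only the 6 arrays compared.

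The genes that changed differed in length. Genomic span, from first to last base of the gene in RefSeq (GRCh38.p14), had a median of 25.9 kb among the higher genes and 79.1 kb among the lower genes, against 24.9 kb among all genes tested. Of the lower genes, 44.4% spanned over 100 kb, as did 7.78% of the higher genes and 17% of all. In steps of span, the share of genes lower was 4.22% up to 10 kb (4667 genes), 5.63% for 10 to 50 kb, 8.55% for 50 to 100 kb, 15.3% for 100 to 200 kb, 29.5% for 200 to 500 kb and 39.1% over 500 kb (102 of 261 genes). The share higher was 12.3% for 10 to 50 kb and 1.28% for 200 to 500 kb, and no gene over 500 kb was called higher. This grouping was chosen after the values were seen and is given without a test.

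**Figure D5:**
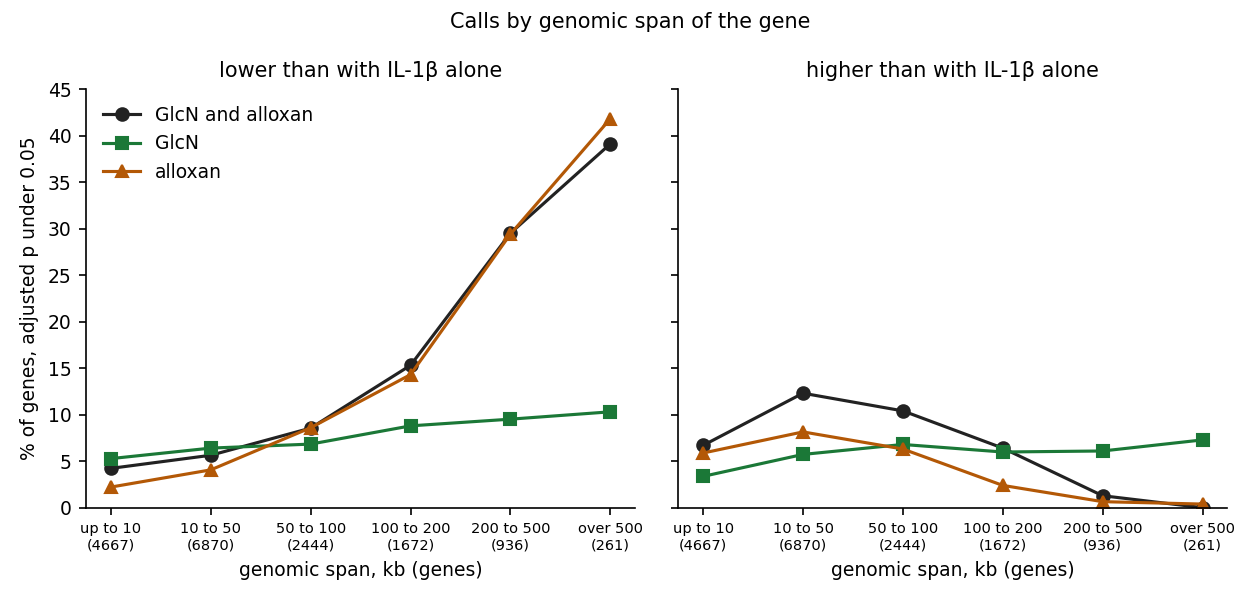
Percent of genes called lower or higher with GlcN and alloxan, and with each single treatment, against IL-1β alone, by genomic span of the gene. The share lower climbs with span to 39.1% over 500 kb with GlcN and alloxan and 41.8% with alloxan, and is 10.3% with GlcN.

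Over 500 kb, 10.3% of genes were lower with GlcN and 41.8% with alloxan, against 6.62% and 7.21% of all genes in those comparisons. Between GlcN and alloxan and GlcN the share lower over 500 kb was 36%, and between GlcN and alloxan and alloxan 1.53%. In experiments 1, 2 and 3, 152, 170 and 209 of the 261 longest genes had a negative difference and 35, 49 and 9 a positive one, the others being equal on both arrays. The long genes TENM2, SEMA3A and RBMS3 (-1.50 ± 0.085), which encodes an RNA-binding protein, are among those named as lower. With only the 6 arrays compared 10.3% of genes over 500 kb were lower, and with genes kept only above the 50th percentile of signal 70.2%. The mean level of the longest genes was 7.01, against 8.19 for 10 to 50 kb, and the part of signal level in these shares was not tested.

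Genes named ZNF, most of which encode zinc finger transcription factors, were higher in 97 of 481 (20.2%) and lower in 17 (3.53%). Over all genes tested these shares were 9.06% and 8.47%. With GlcN 34 were higher (7.07%, against 5.29% of all genes tested) and 24 lower (4.99%, against 6.62%). With alloxan 50 were higher (10.4%, against 6.13%) and 20 lower (4.16%, against 7.21%). This set, too, was chosen after the values were seen.

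Set against GlcN without alloxan, the combination had 551 genes higher (3.27%) and 594 lower (3.52%). These counts share the GlcN and alloxan arrays with those above and depend on single arrays: 1145 genes in all differed, between 654 and 750 without the experiment 1 or 2 array of GlcN and alloxan or the experiment 2 or 3 array of GlcN, 539 without the experiment 3 array of GlcN and alloxan, and 1555 without the experiment 1 array of GlcN. With only the 6 arrays compared, limma called 0, with 2781 at an unadjusted p under 0.05. EGR1 showed the largest rise, with 10.53, 11.70 and 11.73 with GlcN and alloxan, against 8.95, 10.45 and 10.45 with GlcN (1.37 ± 0.18, limma adjusted p = 8.76e-05), all 3 experiments in the same direction. Next by size came the small nucleolar RNA genes SNORD4B (0.94 ± 0.24), SNORA14B (0.89 ± 0.32), SNORA3B (0.86 ± 0.088) and SNORD117 (0.83 ± 0.49), and LRRC39, a gene of muscle sarcomeres (0.84 ± 0.35).

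Lower with the combination than with GlcN were INHBE, an inhibin beta chain (-1.52 ± 0.34), IL20RB (-1.43 ± 0.42), TENM2 (-1.22 ± 0.089), BEST1 (-1.22 ± 0.22), SYT1, a calcium sensor of vesicle release (-1.18 ± 0.10), and RBMS3 (-1.06 ± 0.15). INHBE had 6.60, 8.59 and 8.97 with GlcN and alloxan, against 8.49, 10.02 and 10.20 with GlcN and 5.25, 7.35 and 6.95 with IL-1β alone. It therefore lay between these groups in each experiment. By list, 10 of 45 ATF4 targets were lower and 1 higher than with GlcN, 8 of 31 immediate early genes and 6 of 22 ERK feedback genes were higher, 17 of 81 C/D box snoRNA genes were higher, and 10 of 34 matrix genes were lower. No NF-κB target passed in this comparison.

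Set against alloxan without GlcN, the combination had 314 genes higher (1.86%) and 281 lower (1.67%). The sum of 595 was between 263 and 340 without any 1 array of the comparison except the experiment 3 array of GlcN and alloxan, without which it was 423, and limma called 0 with only the 6 arrays compared (3248 at an unadjusted p under 0.05). BEST1 (2.09 ± 0.29), SPX (2.02 ± 0.37), INHBE (1.94 ± 0.30), SLC6A9 (1.93 ± 0.29), ALDH1L2 (1.88 ± 0.16) and SLC7A11 (1.57 ± 0.28) had the largest rises. SPX had 7.83, 8.29 and 8.59 with GlcN and alloxan, against 5.42, 6.32 and 6.90 with alloxan, without overlap (limma adjusted p = 0.000224).

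The largest falls from alloxan were IER3 (-1.34 ± 0.13), KPRP (-1.29 ± 0.39), MIR21 (-1.26 ± 0.46), F3 (-1.21 ± 0.11), DIO2, the deiodinase that activates thyroid hormone (-1.10 ± 0.35), and RNVU1-19, a U1 small nuclear RNA copy (-1.07 ± 0.73). MIR21 had 6.82, 7.18 and 7.47 with GlcN and alloxan, against 8.23, 8.81 and 8.22 with alloxan (limma adjusted p = 0.000679), lower in each experiment. Of 45 ATF4 targets 30 were higher than with alloxan and 1 lower, and of 35 endoplasmic reticulum genes 24 were higher. Of 31 immediate early genes 17 were lower, as were 10 of 22 ERK feedback genes and 8 of 37 NF-κB targets. CXCL8 had 6.70, 7.26 and 7.43 with GlcN and alloxan, against 8.09, 8.08 and 8.08 with alloxan (-0.96 ± 0.39, limma adjusted p = 0.0355).

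Whether GlcN and alloxan together differed from the sum of their single effects was tested as an interaction, the difference of the combination from IL-1β alone minus those of GlcN and of alloxan. It passed in 12 genes, 2 above the sum (0.0119% of genes tested) and 10 below it (0.0593%), with 923 and 937 at an unadjusted p under 0.05. For nearly all genes, then, no departure from the sum was detected with 3 arrays a group, which does not show that the effects added up. When 1 array was left out, the count was 39 without the GlcN array of experiment 1, 15 without the IL-1β alone array of experiment 3, 8 without the GlcN and alloxan array of experiment 2 and between 2 and 6 without any other.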

How the data were processed

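Total RNA of 15 samples had been labelled and hybridised to Affymetrix Human Gene 1.0 ST arrays, and the authors deposited 1 table of log2 signals summarised by RMA with Affymetrix Expression Console. The sources used here give neither its version nor its settings. The array medians differ by experiment, so differences were taken within an experiment, and overlap between groups is described on the levels as deposited.

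The table holds 33297 clusters, of which 19460 have 1 gene symbol in the platform annotation, 1754 several and 12083 none listed, and 19429 symbols were updated by gene ID to RefSeq (GRCh38.p14). The brightest cluster of each of 18417 symbols was kept where its signal reached the array's 20th percentile on 3 or more of the 15 arrays, leaving 16872 genes. Differences were tested with limma 3.58.1 in R 4.3.3 (5 group means plus experiment as a block, all 15 arrays, 8 residual degrees of freedom, 11.1 after moderation), two-sided, with Benjamini-Hochberg adjustment over all genes tested and a threshold of 0.05. The paper's methods name an unpaired t-test, which was run as an alternative on the levels as deposited. The block was used because the comparison pairs arrays by experiment number. Deviations from group means correlated between 0.621 and 0.848 within an experiment (30 pairs of arrays) and between -0.656 and -0.0678 across experiments (60 pairs). The 3 deviations of a group sum to 0, which by itself favours negative values across experiments. These correlations also cannot tell differences of array processing from other differences between repeats. The script was tested on simulated data with known changes. The simulation assumed additive experiment offsets and independent noise, so it cannot test whether the block or shared spread suits these arrays.

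The arrays, gene lists and tests were chosen with earlier results of these data known, so counts over a list are descriptions. Genes were named by a rule: the 12 largest changes in each direction, up to 4 members of each list with the smallest p, a set of cytokine, ADAMTS and O-GlcNAc genes, and up to 6 genes in each direction against each single treatment and for the interaction. Other list members were named after their values were seen. Genomic spans could be matched for 16850 genes. Alternatives covered the block, the arrays in the fit, filters, clusters per gene, normalization, moderation and leaving out each array. Figures were drawn with matplotlib 3.10.9 in Python 3.11.15. The number of arrays limits the precision.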

Additional observations from a re-analysis of the deposited data

Results flagged for a closer look

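In 8 genes named by size among those past the threshold, the effect of GlcN differed with and without alloxan by the test of the difference itself (limma interaction, in log2 units, ± SD over 3 experiments). IL20RB had an interaction of -1.64 ± 0.54 (limma adjusted p = 0.0112), with a difference from IL-1β alone of 0.81 with GlcN and alloxan, 2.24 with GlcN and 0.21 with alloxan. It was therefore called higher with both compounds, but by less than with GlcN.

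GDF15, a stress-induced cytokine, had -1.52 ± 0.23 (limma adjusted p = 0.00515), with 1.08, 0.96 and 1.63 in the same order. Each compound raised it and the combination stayed below the sum. SESN2 had -0.89 ± 0.13 (limma adjusted p = 0.00515), with 1.24, 1.33 and 0.80, and DDIT4, another brake on mTORC1, had -1.15 ± 0.18 (limma adjusted p = 0.0309), with 0.84, 1.11 and 0.88. GDF15, SESN2 and DDIT4 are in the list of ATF4 targets.

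SLFN5, a member of the schlafen family, had -1.10 ± 0.25 (limma adjusted p = 0.032), with 0.87, 1.66 and 0.31. PDE5A, a phosphodiesterase that degrades cyclic GMP, had -0.89 ± 0.26 (limma adjusted p = 0.032), with 0.16, 1.10 and -0.051. The genes above the sum were ZNF114, at 1.17 ± 0.087 (limma adjusted p = 0.0309), with -1.13, -1.42 and -0.87, and CCBE1, a secreted protein of lymphatic growth, at 0.66 ± 0.26 (limma adjusted p = 0.032), with -1.65, -1.07 and -1.23. Both were lower with each compound and fell by less than the sum with both. No sample was judged as standing apart from its group, since groups of 3 arrays are too small for that check.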

How the results depend on the processing

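With 3 arrays a group, the calls rest on the experiment block and on all 15 arrays sharing 1 estimate of the spread. Without the replicate block limma called 0 genes higher and 1 lower (CD180) against IL-1β alone, with 27 and 45 at an unadjusted p under 0.05, and 0 genes against GlcN (6 unadjusted), 0 against alloxan (15 unadjusted) and 0 for the interaction (1 unadjusted). With the block but only the arrays of the groups compared, 124 were higher and 152 lower, and 0 differed from GlcN and 0 from alloxan (2781 and 3248 unadjusted). With the methods' t-test, 11 genes were higher and 16 lower at unadjusted p and 1.5-fold (28 at unadjusted p alone), and 0 and 0 after Benjamini-Hochberg adjustment. The blocked fit at that threshold gave 235 and 364. The t-test here used the levels as deposited, which differ by experiment, while the paper's supplement lists normalized values beside raw ones. Its counts therefore cannot stand for those of the paper's own test. The filters, the mean over clusters, quantile normalization, equal medians and the moderation kept the counts against IL-1β alone, GlcN and alloxan within 1.5 times. The interaction went to 19 genes with the 50th percentile filter and 23 after quantile normalization, against 12.

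Leaving out 1 array gave between 966 and 1469 genes higher, between 1035 and 1223 lower, between 539 and 1555 different from GlcN, between 263 and 423 different from alloxan and between 2 and 39 with an interaction. Of 140 named differences from IL-1β alone, 12 kept their side of the threshold without the block, 49 with only the arrays compared and at least 125 of those measured under each other alternative. The only signs that turned were of small differences that never passed: CXCL8 ran between -0.097 and 0.033 (0.033 without IL-1β alone replicate 1) and TNF between -0.14 and 0.064 (0.064 without GlcN and alloxan replicate 2). The causes were not tested.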

Other observations

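Many genes had exactly the same deposited value on both arrays of a pair. Between GlcN and alloxan and IL-1β alone this held for 4139 of 16872 genes (24.5%) in experiment 1, 2564 (15.2%) in experiment 2 and 2682 (15.9%) in experiment 3, and for 336 genes in all of them. Such genes count as tested and have a difference of 0 in that experiment.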
